A study of Mus musculus with 8 samples.

Results

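The cytosolic heat shock system was followed through 10 genes in mouse heart. These were the transcription factor gene Hsf1, the HSP70 genes Hspa1a, Hspa1b and Hspa8, the HSP110 gene Hsph1, the HSP90 gene Hsp90aa1, the J-domain protein gene Dnajb1, the small heat shock protein genes Hspb1 and Cryab, and the cochaperone gene Bag3. They were taken by gene name from the 55471 genes in the count tables, and all 10 passed the low-count filter that left 15084 genes for testing. Hearts of 4 wild-type (WT) mice were compared with hearts of 4 TAZG197V mice by RNA sequencing. TAZG197V mice carry a glycine to valine exchange, G197V, in Tafazzin (Taz), the X-linked mitochondrial acyltransferase that remodels cardiolipin and that is mutated in Barth syndrome. The exchange was made by CRISPR/Cas9 in C57BL/6N zygotes, founders were bred to C57BL6/J for 2 generations, and the edited allele is present in every tissue. Per the study, mutants were hemizygous males and mice in the sequencing experiment were 14 weeks old. WT mice carried no edited allele, and neither genotype received a treatment. The RNA came from a small piece of each heart, so all cell types of that piece were sampled together.

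Heat shock proteins are chaperones that bind unfolded proteins and return them to the folded state or pass them to degradation. HSF1 is held inactive by HSP70 and HSP90 family members in unstressed cells, and on proteotoxic stress it forms trimers that bind heat shock elements, inverted repeats of the letters GAA, in front of chaperone genes. In heart muscle, Hspa8 and Hsp90ab1 are the constitutive forms of HSP70 and HSP90, Hspa1a, Hspa1b and Hsp90aa1 are the inducible forms, and the small heat shock protein CRYAB and the cochaperone BAG3 protect the sarcomere.

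The promoter letters of the members were read from RefSeq on GRCm38.p6, the assembly that mm10 names, in windows of 250 bases before to 50 bases after each annotated start. A promoter was found for 6 of the 10 members, and none was read for Hsf1, Hspa8, Hsp90aa1 and Cryab. The search was for 1 inverted pair of heat shock element repeats, GAANNTTC or TTCNNGAA, and for the longer triples GAANNTTCNNGAA or TTCNNGAANNTTC. Each pair reads as itself on the other strand, each triple turns into the other kind of triple there, and every triple holds 2 overlapping pairs. Of 32851 promoters of all genes, 15.1% held a pair, 0.603% a triple and 1.96% at least 2 pairs. A pair was found in 5 of the 6 members (Hspa1a, Hspa1b, Hsph1, Hspb1 and Bag3), a triple only in Hsph1 among them, and Dnajb1 had none in its windows. The stretches below are shown because they hold the pairs of the inducible HSP70 genes, whose levels were lowest of all members. They are also shown for Hspb1 and Hsph1, whose variation between libraries most other members shared. Capitals mark the letters of each pair.
Hspa1a, chr17:34972227-34972286, minus strand: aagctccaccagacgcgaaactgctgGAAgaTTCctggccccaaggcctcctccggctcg
Hspa1b, chr17:34959309-34959368, minus strand: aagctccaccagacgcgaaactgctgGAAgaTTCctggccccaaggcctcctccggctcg
Hspb1, chr5:135887789-135887848, plus strand: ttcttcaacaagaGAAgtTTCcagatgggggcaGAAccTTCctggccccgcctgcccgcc
Hsph1, chr5:149636337-149636396, minus strand: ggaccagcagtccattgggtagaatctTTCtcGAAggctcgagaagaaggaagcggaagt

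Hspa1a and Hspa1b were identical over all 60 bases shown and over 247 of the 250 bases before the start, and the pair began at position -104 in both, where -1 is the last base before the start. Hspb1 held 2 separate pairs, beginning at -117 and -97. The Hsph1 stretch ends at its start and holds a pair at -33, and a triple lies downstream of it at position 37 of the same window. The only pair of Bag3 lay downstream of its start, at position 43. A match of letters is a description of the window and not evidence of binding.

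Total counts per library ran from 23055689 to 36301031. Levels are given as CPM, the counts of a gene relative to its library's total after TMM scaling. The edited gene Taz measured 58.7 to 63.8 CPM in WT and 44.3 to 50.4 CPM in TAZG197V, with no overlap (log2 fold change -0.37, edgeR adjusted p = 0.00124). The cardiomyocyte markers were present in every library, and their 8 genes together summed to 59460 to 68280 CPM in WT and 50660 to 54810 CPM in TAZG197V. Of these 8 markers 4 fell in TAZG197V. Summed levels of other lists were 650.9 to 898.8 CPM against 502.6 to 702.2 CPM for 5 endothelial markers, 1087 to 1721 against 750.6 to 1082 CPM for 5 fibroblast markers and 219.1 to 318.2 against 205.1 to 322.6 CPM for 5 macrophage markers, WT first. Adipocyte markers summed to 416.7 to 586.8 against 404.4 to 515.1 CPM, with Adipoq, Plin1, Retn and Lep too low to test. Skeletal muscle markers summed to 1301 to 2121 against 2027 to 2708 CPM through genes that heart also uses, with Myh1, Myh2, Myh4, Tnnt3 and Actn3 too low to test. Calls were 2 lower among endothelial, 3 lower among fibroblast and 0 among macrophage markers by edgeR, 1 lower of 2 tested adipocyte and 1 higher of 2 tested skeletal muscle markers. Both libraries numbered 4 stood apart from the rest. Brain markers summed to 193.2 CPM in WT 4 and 312.5 CPM in TAZG197V 4 against 43.4 to 86.3 CPM elsewhere, and red cell markers summed to 55070 CPM in WT 4 against 227.3 to 1065 CPM elsewhere. Of the brain markers, Snap25, with 180 and 593 counts in the number 4 libraries and 1 to 14 elsewhere, and Gfap, with 63 and 157 counts and 0 to 13 elsewhere, were above the low-count limit in too few libraries to be tested. The red cell list had 6 of 6 genes lower in the mutant, and of 6 tested brain markers 1 was higher and 3 lower. The count of members called is therefore also given without both of these libraries. In bulk tissue, fewer cells of a type and less RNA per cell cannot be told apart.

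**Figure D1:**
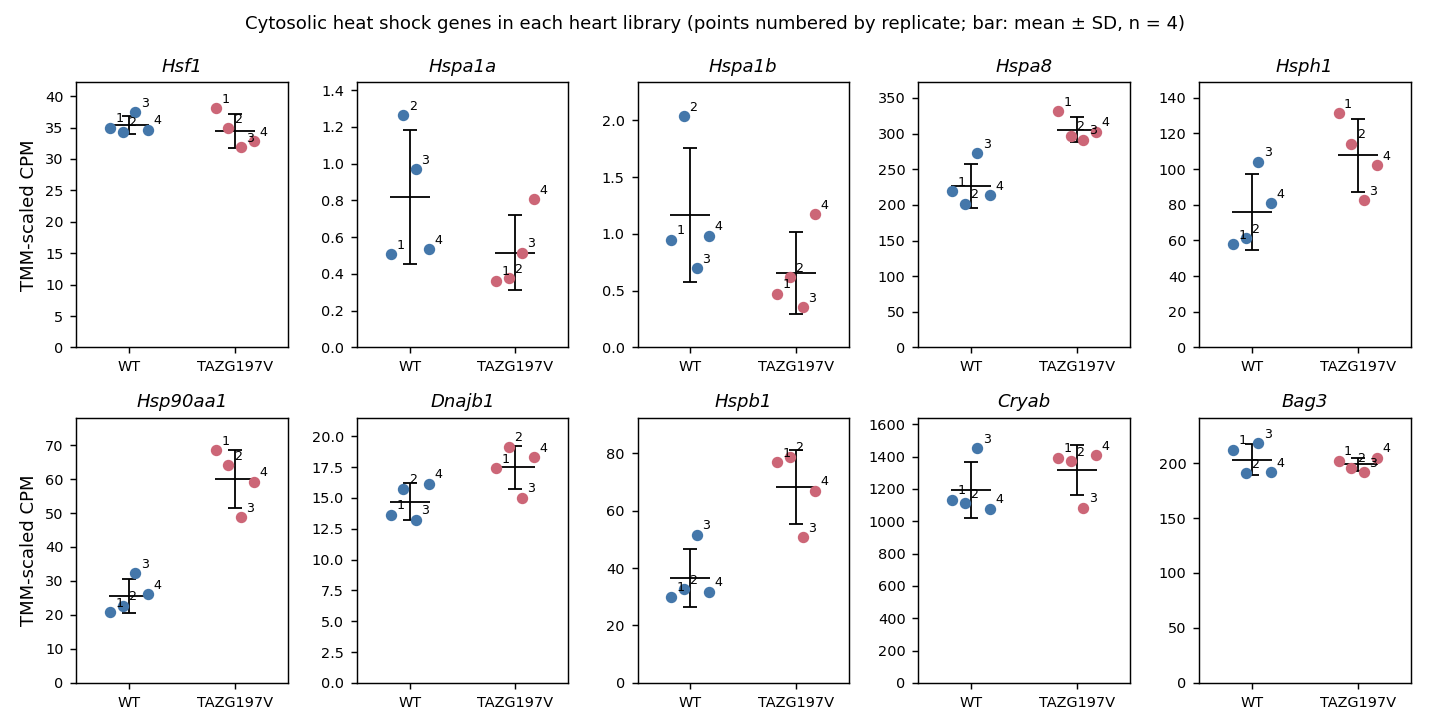
TMM-scaled CPM (vertical axis, starting at 0 in each panel) of the 10 heat shock genes in 4 WT and 4 TAZG197V hearts, with points numbered by replicate and bars at the mean ± SD. The TAZG197V points of Hsp90aa1 and Hspa8 all lie above the WT points, those of Hspb1 meet at the number 3 libraries, and the other panels overlap.

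Of the 10 members, 3 rose in TAZG197V hearts and 0 fell in the edgeR quasi-likelihood test. A call needed a Benjamini-Hochberg adjusted p under 0.05 over every gene tested, a fitted level at least 15% higher in one genotype than in the other and a mean scaled count of 50 or more. Hsp90aa1 rose 2.32-fold, Hspb1 1.86-fold and Hspa8 1.33-fold. Among all genes tested, 18.5% were called higher and 15.1% lower, 33.5% in either direction, so 3 of 10 called higher stands against a background in which calls were common. The median log2 fold change was 0.20 over the 10 members and -0.013 over all genes tested, and 6 of the 10 were positive. All 4 TAZG197V values lay above all 4 WT values for 2 members, Hsp90aa1 and Hspa8, where 19.3% of all genes did so, and below them for 0 members, where 13.9% of all genes did, 33.2% in either direction. At an unadjusted p under 0.05, edgeR gave 5 members higher and 1 lower, beside 25.2% and 23.0% of all genes tested. DESeq2 called the same number higher, 3, and 0 lower, beside 16.1% and 15.2% of all genes. At an unadjusted p under 0.05 it gave 3 and 0, beside 20.7% of all genes in each direction. Without both number 4 libraries, 1 member was called higher, Hsp90aa1, when 2 surrogate variables were fitted to the other 6 libraries, and 3 were called when none were fitted to the same 6 libraries. Of all genes tested, 9.41% and 17.0% were called higher in these fits.

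Levels between genes were compared as CPM per kilobase of merged exons. In WT hearts the order ran from Cryab at 807 ± 117 CPM per kilobase through Bag3 at 79.3 ± 5.42 and Hspa8 at 52.7 ± 7.29 to Hspb1 at 35.4 ± 9.83 (SD, n = 4 each). Hsph1 at 10.5 ± 2.94, Hsp90aa1 at 6.49 ± 1.28, Hsf1 at 4.98 ± 0.203 and Dnajb1 at 4.59 ± 0.459 CPM per kilobase followed, and Hspa1b at 0.416 ± 0.211 and Hspa1a at 0.276 ± 0.123 came last. The small heat shock protein Cryab was thus the most abundant member and the inducible HSP70 genes the least. Values overlapped over the 4 WT libraries between the neighbours Hspa8 and Hspb1, Hsph1 and Hsp90aa1, Hsf1 and Dnajb1, and Hspa1b and Hspa1a, and not between the others. In TAZG197V hearts Cryab stayed first at 888 ± 104 CPM per kilobase and Hspa1a last at 0.174 ± 0.0693. Hspb1 at 66.3 ± 12.5 CPM per kilobase then overlapped Hspa8 at 71.1 ± 4.11, which in turn overlapped Bag3 at 77.6 ± 2.36. Hsp90aa1 stood at 15.3 ± 2.15 CPM per kilobase, above rather than below Hsph1 at 14.8 ± 2.82, and the values of both overlapped.

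Hsf1 (ENSMUSG00000022556, chromosome 15, 76477422 to 76501913, plus strand, mm10) encodes the factor that drives the other members on heat and proteotoxic stress. Its level was 35.0, 34.3, 37.5 and 34.6 CPM in WT 1 to WT 4 and 38.0, 34.9, 31.9 and 32.9 CPM in TAZG197V 1 to TAZG197V 4. The genotypes overlapped, and the highest and the lowest of the 8 values were both from mutant hearts. The log2 fold change was -0.045 (SE 0.072, edgeR adjusted p = 0.641). The regulator's own transcript therefore gave no detectable difference, and its protein and its activity were not measured here.

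Hspa1a (ENSMUSG00000091971, chromosome 17, 34969190 to 34972156, minus strand, mm10) and Hspa1b (ENSMUSG00000090877, chromosome 17, 34956436 to 34959238, minus strand) encode the inducible HSP70 and are neighbouring copies of a single exon each. Raw counts of Hspa1a were 15, 46, 25 and 12 in WT and 10, 14, 16 and 22 in TAZG197V. Raw counts of Hspa1b were 28, 74, 18 and 22 in WT and 13, 23, 11 and 32 in TAZG197V. Both genes were near the bottom of the tested range in every heart, their values overlapped between genotypes, and WT 2 held the highest value of each. Of the 50-base windows of their transcripts, 66.3% for Hspa1a and 62.3% for Hspa1b also occur in another gene, mostly in each other, so the counting could split or drop reads between them.

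In CPM, Hspa1a was 0.820 ± 0.364 in WT and 0.516 ± 0.206 in TAZG197V, with a log2 fold change of -0.54 (SE 0.345, edgeR adjusted p = 0.245). Hspa1b measured 1.17 ± 0.592 in WT hearts and 0.655 ± 0.362 in TAZG197V hearts, with -0.65 (SE 0.24, edgeR adjusted p = 0.0629, 0.0161 to 0.467 over the alternatives). When 1 library was left out, the estimate for Hspa1a ran from -1.045 (without TAZG197V 4) to -0.263 (without WT 3), and that for Hspa1b from -1.181 (without TAZG197V 4) to -0.374 (without WT 2). Over all alternatives they ran from -1.205 to -0.147 and from -1.356 to -0.374. Neither reached a mean scaled count of 50, with 19.6 for Hspa1a and 26.7 for Hspa1b, so neither could be called. With both genes summed into 1 feature the log2 fold change was -0.61 (edgeR adjusted p = 0.0489), still under the minimum mean count. The inducible HSP70 genes were thus the only members besides Hsf1 and Bag3 with a negative estimate.

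The inducible and constitutive HSP70 transcripts were also set against each other within each library, a comparison that needs no scaling between libraries. Counts of Hspa1a plus Hspa1b were 0.663, 1.64, 0.613 and 0.711% of the Hspa8 counts in WT 1 to WT 4 and 0.252, 0.336, 0.299 and 0.654% in TAZG197V 1 to TAZG197V 4. The share was under 1 in every heart but WT 2, and TAZG197V 4 lay among the WT values. The mean log2 ratio was -6.91 ± 0.66 in WT and -8.12 ± 0.602 in TAZG197V, a difference of -1.21 (exact two-sided permutation test over 70 splits, p = 0.0571). Since Hspa8 is the denominator, its own rise enters this difference.

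Hspa8 (ENSMUSG00000015656, chromosome 9, 40800984 to 40810087, plus strand, mm10) encodes the constitutive HSP70, HSC70, which folds new proteins and uncoats clathrin vesicles. It measured 219.4, 201.4, 272.3 and 213.5 CPM in WT and 331.3, 297.3, 291.3 and 302.8 CPM in TAZG197V. Every mutant heart lay above every WT heart, and WT 3 was the WT heart closest to them. The means were 226.7 ± 31.4 and 305.7 ± 17.7 CPM, and the log2 fold change was 0.41 (SE 0.093, edgeR adjusted p = 0.00917, 0.000191 to 0.286 over the alternatives). Besides a stricter fold change of 1.5, the call was lost without both number 4 libraries (log2 fold change 0.17, edgeR adjusted p = 0.286) and without TAZG197V 1 and 2 (0.38, edgeR adjusted p = 0.101). With no surrogate variables fitted, Hspa8 was called without both number 4 libraries (0.408, edgeR adjusted p = 0.0247). Of its 50-base windows, 39.4% also occur in another gene, among them the processed pseudogene Gm15459 and the long noncoding RNA Gm26825.

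Hsph1 (ENSMUSG00000029657, chromosome 5, 149614287 to 149636376, minus strand, mm10) encodes HSP110, the nucleotide exchange factor that recycles HSP70 and cooperates with it in taking apart aggregates. It measured 57.7, 61.1, 104.1 and 81.0 CPM in WT and 131.3, 114.3, 82.7 and 102.2 CPM in TAZG197V. Libraries 1 and 2 were far apart between genotypes and libraries 3 were in reverse order. The log2 difference of means was 1.04 among the lane 7 libraries, which are numbers 1 and 2, and 0.002 among the lane 8 libraries, numbers 3 and 4. In the fit over all 8 libraries the log2 fold change was 0.46 (SE 0.189, edgeR adjusted p = 0.085, 0.0187 to 0.85 over the alternatives). Leaving out WT 3 gave 0.67 (edgeR adjusted p = 0.0215), leaving out TAZG197V 3 gave 0.54 (0.0436) and leaving out TAZG197V 4 gave 0.58 (0.0446). The estimate was lower and not called without WT 1 (0.278, edgeR adjusted p = 0.243), WT 2 (0.398, 0.189), TAZG197V 1 (0.333, 0.256) or TAZG197V 2 (0.401, 0.24). Without both number 4 libraries the Hsph1 estimate was 0.072 with 2 surrogate variables and 0.56 with none (edgeR adjusted p = 0.85 and 0.105).

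Hsp90aa1 (ENSMUSG00000021270, chromosome 12, 110690605 to 110702728, minus strand, mm10) encodes the inducible HSP90, which matures kinases and steroid receptors and also folds myosin with its cochaperones. It measured 20.9, 22.8, 32.3 and 26.03 CPM in WT and 68.4, 64.0, 48.7 and 59.2 CPM in TAZG197V. All mutant hearts were above all WT hearts, and the gap was smallest between WT 3 and TAZG197V 3. The means were 25.5 ± 5.04 and 60.1 ± 8.47 CPM, and the log2 fold change was 1.21 (SE 0.151, edgeR adjusted p = 0.000541). Hsp90aa1 was called under all 23 alternatives, with log2 fold changes of 0.90 to 1.44 and adjusted p of 1.03e-15 (DESeq2) to 0.0225 (edgeR without TAZG197V 1 and 2). Its log2 difference was 1.60 in lane 7 and 0.89 in lane 8. Of its 50-base windows 47.5% also occur in another gene, mostly the pseudogenes Gm12346 and Gm5844, which could take or remove reads.

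The constitutive partner Hsp90ab1, which is no member, rose less. It measured 1096, 1055, 1200 and 1218 CPM in WT and 1500, 1414, 1283 and 1493 CPM in TAZG197V, without overlap, and its log2 fold change was 0.30 (SE 0.076, edgeR adjusted p = 0.0152). Hsp90ab1 was called in 18 of 23 alternatives. The call was lost at a fold change of 1.5, without TAZG197V 1 (edgeR adjusted p = 0.0509), without TAZG197V 2 (0.0577), without both of them (0.198), and without both number 4 libraries with 2 surrogate variables (0.215) but not with none (0.0208). Per kilobase, Hsp90ab1 at 381 ± 26.4 CPM in WT was the more abundant of the HSP90 genes. Hsp90aa1 counts were 1.9, 2.16, 2.7 and 2.14% of Hsp90ab1 counts in WT and 4.56, 4.52, 3.8 and 3.97% in TAZG197V. The share was higher in every mutant heart than in any WT heart. The mean log2 ratio was -5.50 ± 0.21 in WT and -4.57 ± 0.134 in TAZG197V, a difference of 0.93 (exact two-sided permutation test, p = 0.0286, the smallest that 70 splits allow). The HSP90 pair thus shifted toward its inducible form within libraries, while for the HSP70 pair the estimate ran the other way and missed the threshold.

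**Figure D2:**
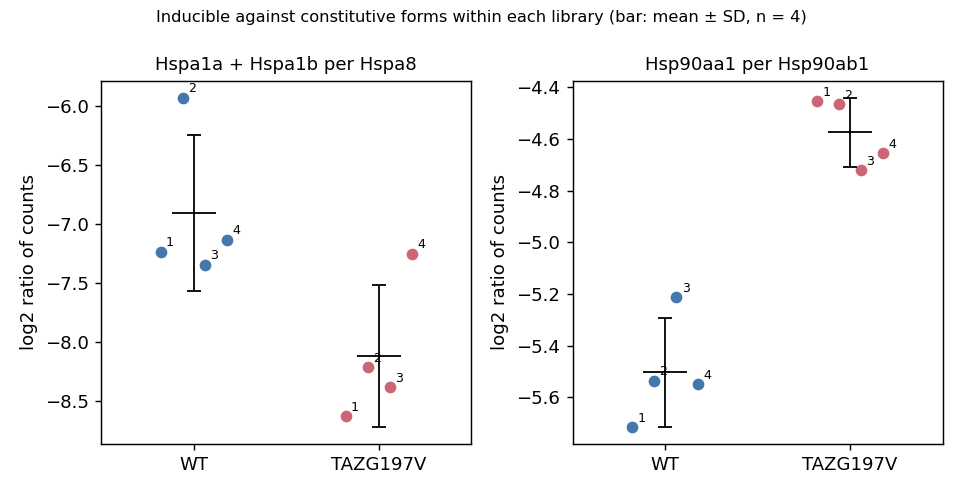
Log2 ratio of counts within each library (vertical axis, not starting at 0) for Hspa1a plus Hspa1b per Hspa8 on the left and Hsp90aa1 per Hsp90ab1 on the right, with points numbered by replicate and bars at the mean ± SD, n = 4. The right panel separates the genotypes, and in the left panel TAZG197V 4 lies among the WT points.

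Dnajb1 (ENSMUSG00000005483, chromosome 8, 83608193 to 83612653, plus strand, mm10) encodes HSP40, the J-domain protein that hands clients to HSP70 and stimulates its ATPase. It measured 13.6, 15.7, 13.2 and 16.2 CPM in WT and 17.4, 19.1, 15.0 and 18.3 CPM in TAZG197V. TAZG197V 3 lay among the WT values and the other mutant hearts above them. The log2 fold change was 0.26 (SE 0.099, edgeR adjusted p = 0.0672, 0.0299 to 0.386 over the alternatives), and Dnajb1 was called in 3 of 23 alternatives, the replicate block and the omission of WT 4 or of TAZG197V 3. In these fits 4, 4 and 5 members were called higher, beside 16.2%, 18.0% and 17.6% of all genes tested.

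Bag3 (ENSMUSG00000030847, chromosome 7, 128523616 to 128546981, plus strand, mm10) links HSP70 and small heat shock proteins to the autophagy of damaged sarcomere proteins, and its loss causes cardiomyopathy. It measured 212.0, 190.7, 217.9 and 191.8 CPM in WT and 202.3, 195.8, 191.8 and 205.0 CPM in TAZG197V. The mutant values all lay within the WT range. The log2 fold change was -0.038 (SE 0.066, edgeR adjusted p = 0.68), and it stayed between -0.148 and 0.008 under all 23 alternatives.

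Hspb1 (ENSMUSG00000004951, chromosome 5, 135887919 to 135889563, plus strand, mm10) encodes the small heat shock protein HSP25, which holds unfolding proteins in solution and binds actin filaments. It measured 30, 32.6, 51.6 and 31.8 CPM in WT and 76.9, 78.9, 50.7 and 66.9 CPM in TAZG197V. WT 3 stood above the other WT hearts and just above TAZG197V 3, and apart from this pair the genotypes were separate. The means were 36.5 ± 10.1 and 68.4 ± 12.9 CPM, and the log2 fold change was 0.89 (SE 0.201, edgeR adjusted p = 0.00923, 0.000759 to 0.258 over the alternatives). The call was lost without both number 4 libraries (log2 fold change 0.42, edgeR adjusted p = 0.258) and without TAZG197V 1 and 2 (0.66, edgeR adjusted p = 0.165), and kept in the other 21 alternatives. These include the fit without both number 4 libraries and with no surrogate variables (0.857, edgeR adjusted p = 0.0208). Of its 50-base windows 50.1% also occur in another gene, namely the pseudogene Hsp25-ps1 and Gm9817.

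Cryab (ENSMUSG00000032060, chromosome 9, 50751325 to 50756636, plus strand, mm10) encodes alpha-B-crystallin, the small heat shock protein that guards desmin and titin in heart muscle. It measured 1134, 1110, 1450 and 1077 CPM in WT and 1392, 1372, 1083 and 1408 CPM in TAZG197V. Apart from the number 3 libraries, each mutant heart was above each WT heart, and the number 3 libraries were in the reverse order. Over all libraries the log2 fold change was 0.13 (SE 0.13, edgeR adjusted p = 0.449, 0.0364 to 0.926 over the alternatives). Without both number 3 libraries it was 0.33 (edgeR adjusted p = 0.0364), and without both number 4 libraries it was -0.177 with 2 surrogate variables (edgeR adjusted p = 0.444) and 0.058 with none (edgeR adjusted p = 0.762). Hspb2 overlaps 17% of the Cryab exon bases on the opposite strand, and since the strand setting of the counting was not given, their reads cannot be told apart there.

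The members varied between hearts of a genotype in a shared way. WT 3 held the highest WT value of 7 members (Hsf1, Hspa8, Hsph1, Hsp90aa1, Hspb1, Cryab and Bag3), while it did so for 24.2% of all genes tested. TAZG197V 3 held the lowest mutant value of 9 members, all but Hspa1a, while it did so for 23.3% of all genes tested. These counts are descriptions, since the members of a library share its RNA. The lane 8 libraries, numbers 3 and 4, differed less between genotypes than the lane 7 libraries for the members that were called, with log2 differences of 0.58 in lane 7 and 0.30 in lane 8 for Hspa8 and of 1.32 and 0.52 for Hspb1. They were 0.32 and 0.18 for Dnajb1, 0.30 and -0.017 for Cryab, -1.03 and -0.15 for Hspa1a and -1.28 and -0.32 for Hspa1b. For Hsf1 they were 0.072 and -0.155 and for Bag3 -0.015 and -0.044, and with 2 hearts per genotype in a lane none of these was tested. Without both number 3 libraries, left out because of these very values so that the choice itself favours more calls, 5 members were called higher in place of 3, with Hsph1 (log2 fold change 0.74, edgeR adjusted p = 0.0187) and Cryab added. Of all genes tested, 14.5% were called higher in that fit, and the count is a description that supports nothing.

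Immediate early genes, which respond within minutes to stress, handling and dissection, stood out in part in the same libraries, though not always in the same direction. Their 11 genes summed to 227.0, 309.9, 186.2 and 251.3 CPM in WT 1 to WT 4 and to 631.4, 826.4, 140.3 and 233.6 CPM in TAZG197V 1 to TAZG197V 4. The number 3 library was the lowest of its genotype in both, and TAZG197V 1 and 2 were the highest of all hearts. Most members were likewise lowest in TAZG197V 3 among mutant hearts, but highest in WT 3 among WT hearts. Egr1, a zinc finger factor, measured 111.9 and 154.1 CPM in TAZG197V 1 and 2 and 7.52 to 23.1 CPM in the other 6 libraries. Of the 11 genes 0 were called by edgeR, and all 11 had positive estimates, and their median log2 fold change was 1.06. Without TAZG197V 1 and 2, libraries left out for these very values, the same 11 estimates were all negative, and of the members 1, Hsp90aa1, was called higher, beside 7.62% of all genes tested. The part of the immediate early genes in the member values was not tested.

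Genes of the daily clock and of cold response were read beside them, since chaperone levels in tissue follow time of day and temperature. The 8 clock genes summed to 587.3, 578.2, 311.2 and 358.5 CPM in WT and 429.5, 466.5, 349.1 and 480.5 CPM in TAZG197V. Arntl, the activator of the clock, was at 9.17 and 8.16 CPM in WT 1 and 2, at 31.7 and 22.4 CPM in WT 3 and 4, and at 7.19, 5.80, 14.5 and 6.97 CPM in TAZG197V 1 to 4. Its level was highest in WT 3 and, among mutant hearts, in TAZG197V 3. Most members were high in WT 3 but low in TAZG197V 3, so the direction was shared in WT 3 only. Of the 8 clock genes, Ciart rose (log2 fold change 1.71, edgeR adjusted p = 0.000624) and Arntl fell (-1.12, edgeR adjusted p = 0.0372). Ciart was called in 23 of 23 alternatives and Arntl in 13, with an edgeR adjusted p of up to 0.271. The cold-inducible genes Cirbp and Rbm3 together measured 55.2, 58.8, 42.7 and 43.7 CPM in WT and 38.5, 43.7, 43.3 and 43.6 CPM in TAZG197V, and 0 of these 2 were called by edgeR, with 0.218 and 0.142 as adjusted p. The hour of dissection is not given in the sources used here, and the part of the clock in the member values was not tested.

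**Figure D3:**
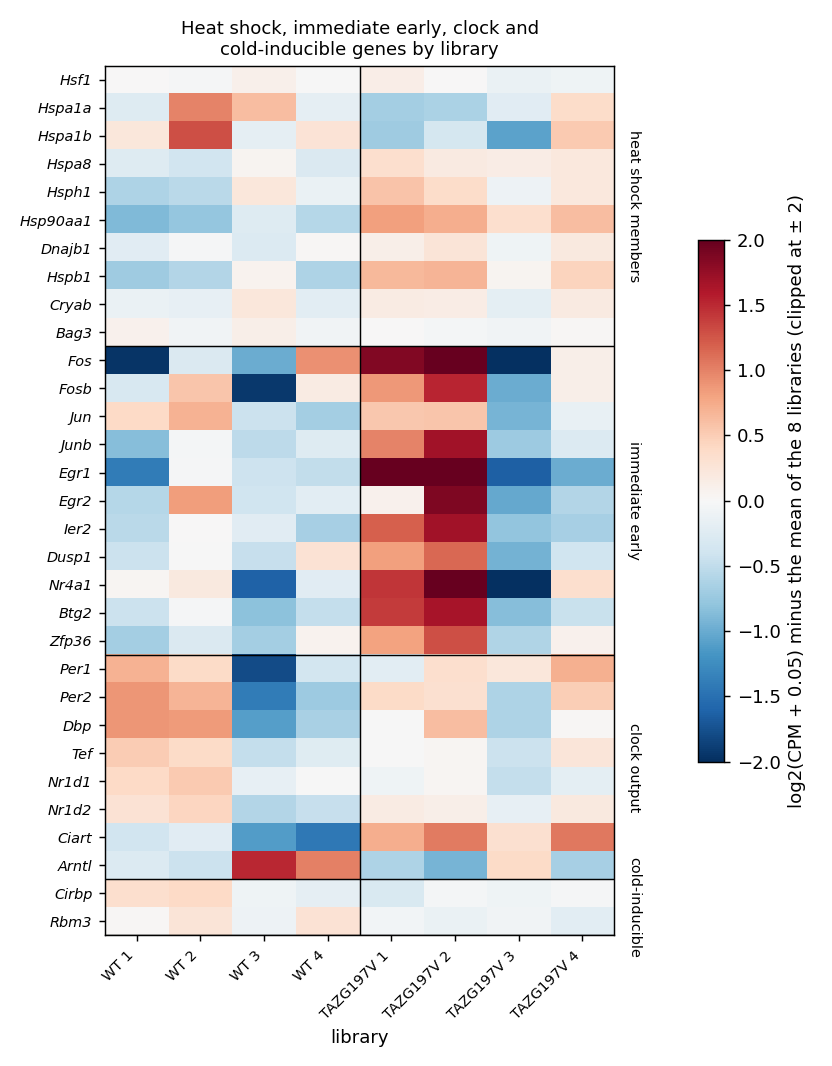
Log2(CPM + 0.05) of each gene minus its mean over the 8 libraries (colour, clipped at 2 in either direction) for the 10 heat shock members, 11 immediate early, 8 clock and 2 cold-inducible genes, with WT left and TAZG197V right of the line. Hsp90aa1, Hspa8 and Hspb1 are redder on the right, their red cells are palest in the column of TAZG197V 3, and immediate early genes are reddest in TAZG197V 1 and 2.

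Around the members, 81 other genes of the cytosolic folding machinery in 9 lists were read, of which 77 were tested. Of these 32 rose and 7 fell, with a median log2 fold change of 0.20, against 18.5% higher, 15.1% lower and a median of -0.013 over all genes tested. The count of higher genes was 19 without both number 4 libraries with 2 surrogate variables and 29 with none, 18 without TAZG197V 1 and 2 and 9 at a fold change of 1.5. Of all genes tested, 9.41%, 17.0%, 7.62% and 6.62% were called higher in these fits. The lists hold genes of 1 function each, and the examples named are the called genes of a list with the greatest change. The most uniform list was the TRiC/CCT chaperonin, the barrel that folds actin and tubulin, in which all 8 tested subunits rose with no overlap between genotypes and a median log2 fold change of 0.58, and Cct6b was too low to test. Cct5 measured 133 ± 8.28 CPM in WT and 237.5 ± 15.2 CPM in TAZG197V, Cct3 110.1 to 127.1 and 177.4 to 219.6 CPM, and Cct2 118.9 ± 2.22 and 199.0 ± 9.74 CPM. Their log2 fold changes were 0.84, 0.75 and 0.75. Prefoldin, which delivers clients to TRiC, had 2 of 6 genes higher, Pfdn6 (log2 fold change 0.47) and Pfdn4 (0.47), and 0 lower. Pfdn6 was called in 22 of 23 alternatives and Pfdn4 in 20, with an edgeR adjusted p of up to 0.163, reached without both number 4 libraries.

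Among HSP90 and its cochaperones, 6 of 16 genes rose and 2 fell. Sugt1, which brings leucine-rich repeat proteins to HSP90, went from 54.3 ± 7.62 to 81.8 ± 4.94 CPM, and Ppid, a cyclophilin of the HSP90 receptor complexes, from 31.3 ± 1.54 to 46.5 ± 3.88 CPM. Fkbp4, the immunophilin that carries steroid receptors with HSP90, fell by 0.455 on the log2 scale (edgeR adjusted p = 0.00417), from 419.2 ± 56.5 to 305.9 ± 23.6 CPM, and was called in 21 of 23 alternatives, with an edgeR adjusted p of up to 0.0601. Of 7 HSP70 and HSP110 relatives 2 rose and 2 fell. Hspa4, an exchange factor close to Hsph1, had a log2 fold change of 0.42 (SE 0.06, edgeR adjusted p = 0.00107), with 201.8 to 218.1 CPM in WT and 263.1 to 291.4 CPM in TAZG197V. The divergent relatives Hspa12a, at 52.0 ± 5.76 against 29.1 ± 3.04 CPM, and Hspa12b, at 41.6 ± 6.57 against 32.9 ± 2.40 CPM, fell. Hspa12a was called in 23 of 23 alternatives and Hspa12b in 14, with an edgeR adjusted p of up to 0.168.

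J-domain proteins other than Dnajb1 gave 4 higher and 1 lower of 13, with Dnajc2 at a log2 fold change of 0.70, Dnaja2 at 0.33 and Dnajb5 at -0.45. Dnaja2 was called in 20 of 23 alternatives and Dnajb5 in 13, with an edgeR adjusted p of up to 0.0645 and 0.334. Of 7 other small heat shock proteins 5 were tested, with 2 called higher, 1 lower and 2 not called. Those not called were Hspb6 (log2 fold change -0.1, edgeR adjusted p = 0.486) and Hspb8 (-0.143, edgeR adjusted p = 0.308). Hspb3 fell from 8.43 ± 1.74 CPM in WT to 3.88 ± 1.41 in TAZG197V (-1.08 on the log2 scale, edgeR adjusted p = 0.00827), while Hspb7 (0.49, edgeR adjusted p = 0.0409) and Hspb2 (0.44, edgeR adjusted p = 0.00591) rose. WT 4 was low for Hspb7, at 1318 CPM against 2259 to 2413 CPM in the other WT hearts, and Hspb7 was called in 9 of 23 alternatives. Its call was lost, among others, with no surrogate variables (log2 fold change 0.409, edgeR adjusted p = 0.117) and under the replicate block (0.445, edgeR adjusted p = 0.0932), where the estimate stayed near 0.49. Without WT 4 the estimate dropped to 0.237 (edgeR adjusted p = 0.064), and without both number 4 libraries to 0.206 (edgeR adjusted p = 0.324). Hspb2 was called in 20 of 23 alternatives, with an edgeR adjusted p of up to 0.0857, reached without TAZG197V 1 and 2, and shares exon bases with Cryab, as given above.

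Of 11 exchange factors and partners of Bag3, 5 rose and 1 fell. Flnc, the filamin of the Z-disc that BAG3 clears when it is damaged, measured 399.1 ± 64.2 CPM in WT hearts and 829.9 ± 103 CPM in mutant hearts, with a log2 fold change of 1.04 (SE 0.116, edgeR adjusted p = 0.000316). Synpo2, which takes part in the same autophagy, went the other way, from 153.5 ± 6.64 CPM in WT to 88.6 ± 10.3 in TAZG197V (-0.80, edgeR adjusted p = 9.4e-05). Hspbp1, an exchange factor of HSP70, had a log2 fold change of 0.46. Bag3 itself lay within its WT range, as given above.

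Other heat-inducible genes gave 3 of 8 higher and 0 lower. The mitochondrial chaperonin genes Hspd1, at 187.4 ± 13.3 against 344.1 ± 30.7 CPM, and Hspe1, at 35.3 ± 4.54 against 67.7 ± 9.60 CPM, rose with log2 fold changes of 0.85 and 0.91, and Zfand2a passed the threshold at 0.21. Hspd1 and Hspe1 were called in 23 of 23 alternatives and Zfand2a in 6, with an edgeR adjusted p of up to 0.302. The Hspe1 promoter window and 1 of 2 Hspd1 windows overlap on opposite strands and hold the same 2 overlapping triples, and the other Hspd1 window held 0. Outside the members, triples were also found in Chordc1 and Dnajb6, which were not called (log2 fold changes 0.034 and 0.035, edgeR adjusted p = 0.792 and 0.803). A link between triples and levels was not tested. The other heat shock factors Hsf2 and Hsf4 and the HSF binding protein Hsbp1 gave 0 calls by edgeR of 3 tested, at positive log2 fold changes of 0.15 to 0.19 and adjusted p of 0.0561 to 0.456.

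**Figure D4:**
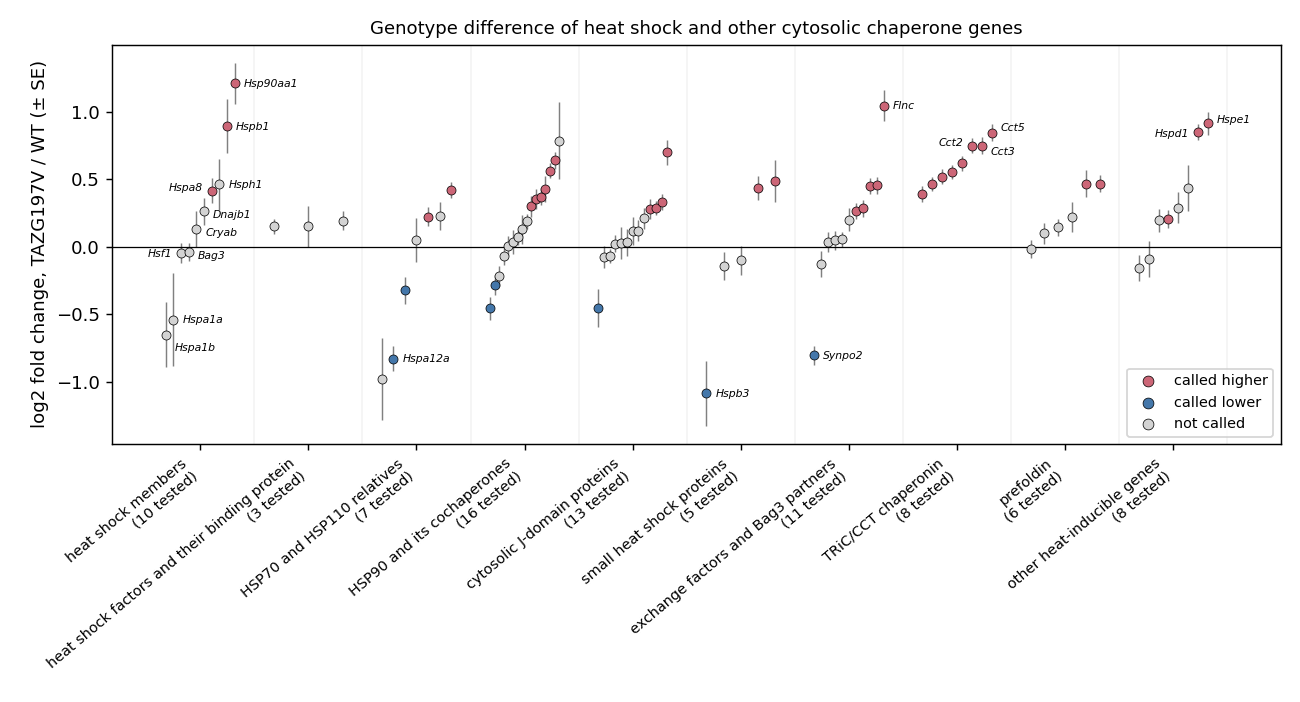
Log2 fold change of TAZG197V over WT (vertical axis, ± SE) for each tested gene of the 10 heat shock members and of 9 further chaperone lists, with red for called higher, blue for called lower and grey for not called. All 8 TRiC/CCT subunits are red, and the members spread from -0.65 for Hspa1b to 1.21 for Hsp90aa1.

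The fitted differences were recomputed under 23 alternatives. Hsp90aa1, Hspa8, Hspb1, Hsph1 and Dnajb1 stayed positive and Hspa1a and Hspa1b negative in each alternative that gave a value for them. Hsf1 ran from -0.13 to 0.008, Bag3 from -0.148 to 0.008 and Cryab from -0.177 to 0.333 on the log2 scale. Without both number 4 libraries the estimate of Hspb1 was 0.42 with 2 surrogate variables and 0.86 with none, and that of Hspa8 was 0.17 and 0.41, beside 0.89 and 0.41 over all libraries.

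**Figure D5:**
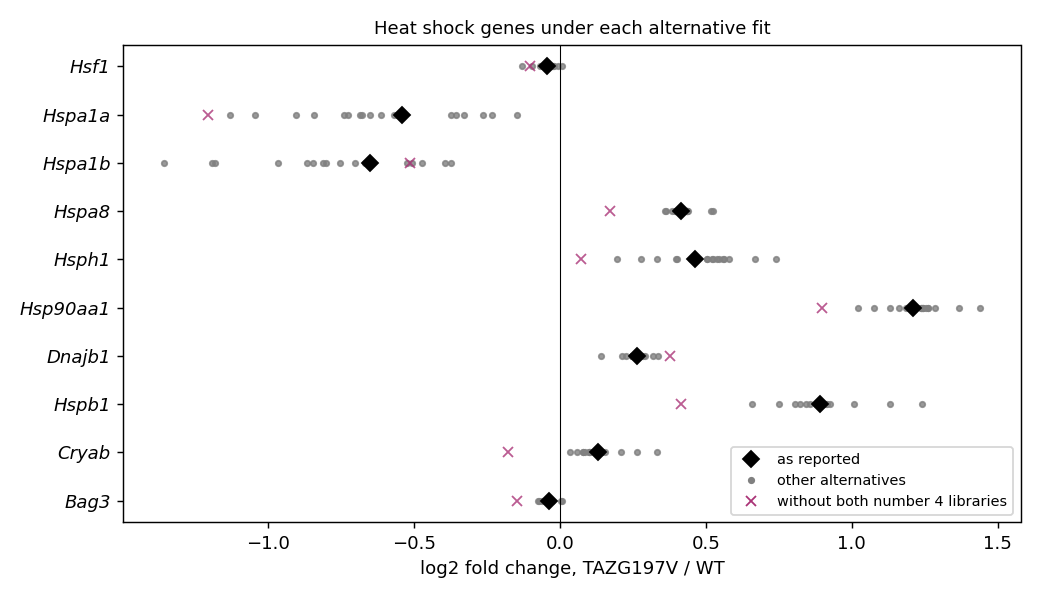
Log2 fold change of TAZG197V over WT (horizontal axis) for each member as reported (diamonds), in the fit without both number 4 libraries (crosses) and in the other 22 alternatives (dots). Hsp90aa1 lies between 0.90 and 1.44 throughout, and the spread is widest for the low-count genes Hspa1a and Hspa1b.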

How the data were processed

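RNA was sequenced from heart pieces of 4 WT and 4 TAZG197V mice. As the labels and the methods state, the authors converted base calls with bcl2fastq 2.20.0, checked reads with FastQC 0.11.9, aligned 50-base single-end reads to mm10 with STAR 2.7.3a and counted reads over the exons of each gene with featureCounts of Subread 2.0.0. Each deposited value is a raw count of reads for 1 Ensembl gene. Which annotation release, strand setting and treatment of multiply aligned reads were used is not given in the sources used here. The 92 ERCC spike-in rows summed to 0 counts and were left out. Symbols, positions and exon lengths came from GENCODE M21, in which 55144 IDs had a symbol. Windows of 50 bases stood for reads when shared sequence was searched.

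Counts were tested in R 4.3.3 with edgeR 4.0.16, filterByExpr, TMM scaling and 2 surrogate variables from svaseq (sva 3.50.0, seed 1, genotype protected), by the two-sided quasi-likelihood test with Benjamini-Hochberg adjustment over all 15084 genes. Calls needed an adjusted p under 0.05, a fitted level at least 15% higher in one genotype and a mean scaled count of at least 50. SEs were derived from the F statistic and the log2 fold change. Within-library ratios were compared by exact permutation of genotype. Total counts of 23055689 to 36301031 make counting error small for all members but Hspa1a and Hspa1b. Each library is labelled as a separate sample, and where mice share a litter is not stated, so p-values measure the spread between these samples. A chi-square statistic over genes showed no pair of libraries to be a repeat of another.

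The text names the members, Taz, Hsp90ab1, up to 3 called genes per chaperone list with the largest change and genes of the immediate early, clock and cold-inducible lists. Outside this rule, Hsf2, Hsf4, Hsbp1, Hspb6, Hspb8, Chordc1 and Dnajb6 were named after their values were seen. The members and lists were chosen with earlier results of these data known. The script was tested on simulated data. Alternatives were DESeq2 1.42.0, other covariates (lane, replicate block, 0 or 1 surrogate variable), other scaling and filters, a fold change of 1.5, Hspa1a and Hspa1b summed, and omission of libraries. Omission of both number 3 libraries, of TAZG197V 1 and 2, and of both number 4 libraries with no surrogate variables was chosen after seeing the data.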

Additional observations from a re-analysis of the deposited data

Results flagged for a closer look

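Within each genotype, the highest and the lowest library were compared with the rest, and a library was set aside for a closer look when its gap to the nearest other library took more of the whole range of the 4 than Dixon's critical value at the 95% level allows. This held in 10 of 138 sets, where chance flags about 1 in 20 and thus 6.9 sets.

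For the members and the HSP70 ratio, 3 sets met this. Hspb1 in WT 3 was at 5.69 on the log2 CPM scale, against 4.91 to 5.03 in the other WT hearts (gap 0.849 of the range). Cryab in TAZG197V 3 was at 10.1, against 10.4 to 10.5 in the other mutant hearts (gap 0.902). The log2 ratio of Hspa1a plus Hspa1b to Hspa8 in WT 2 was -5.93, against -7.35 to -7.14 in the other WT hearts (gap 0.849).

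Of the other chaperone and clock genes, Dnajb5 in WT 4 was at 5.85 on the log2 CPM scale against 6.53 to 6.67 (gap 0.831), Hspb7 in WT 4 at 10.4 against 11.1 to 11.2 (gap 0.891), and Per2 in TAZG197V 3 at 2.71 against 3.65 to 3.83 (gap 0.845).

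Of the summed marker lists on the same scale, the cold-inducible genes in TAZG197V 1 were at 5.27 against 5.44 to 5.45 (gap 0.92), brain markers in WT 4 at 7.59 against 6.23 to 6.43 (gap 0.853), brain markers in TAZG197V 4 at 8.29 against 5.44 to 5.67 (gap 0.921) and fibroblast markers in WT 2 at 10.7 against 10.1 to 10.2 (gap 0.858).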

How the results depend on the processing

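Over the 56 genes that the naming rule gave, 1287 values under alternatives were computed. Of these, 1114 kept their direction and their side of the threshold, 86 lost a call, 46 gained one and 41 turned in sign. Of the members, 3 were called higher as reported, 3 to 5 when 1 library was left out (5 without TAZG197V 3, and 13.9 to 18.7% of all genes in these fits), 1 without both number 4 libraries, 5 without both number 3 libraries and 1 without TAZG197V 1 and 2. Of the other chaperone genes, 32 were called higher as reported, 9 at a fold change of 1.5, 19 without both number 4 libraries and 18 without TAZG197V 1 and 2. Of these, 7 were called lower as reported, 3 at a fold change of 1.5, 4 to 8 when 1 library was left out (4 without TAZG197V 2 or TAZG197V 3), 4 without both number 3 libraries and 3 without TAZG197V 1 and 2. Of all genes tested, 15.1% were called lower as reported. The share called lower in these other fits is not given here, so their lower counts are descriptions without a background. The HSP70 ratio was -1.498 to -0.882 when 1 library was left out, and -1.50 without TAZG197V 4 (exact permutation p = 0.0286). The HSP90 ratio was 0.941 without both number 4 libraries, where the exact permutation p is 0.1, the smallest that 3 against 3 allow. Without both number 4 libraries and with no surrogate variables, 3 members and 29 other chaperone genes were called higher. That fit was chosen after seeing the data. Apart from the stricter fold of its alternative, the cause of these moves was not tested. Depth limits Hspa1a and Hspa1b, whose counts of 10 to 74 per library leave their difference open to counting error.

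The replicate numbers were used as a block in place of the surrogate variables. Same-numbered libraries deviated together with correlations of 0.277, 0.044, 0.28 and 0.416 for numbers 1 to 4, and differently numbered libraries with -0.464 to 0.317. Number 2 fell under the limit of 0.1 that every pair had to pass, so the numbers were not taken as pairs. Under the block 4 members and 16.2% of all genes were called higher, with Dnajb1 added (0.25, edgeR adjusted p = 0.0421), and the HSP90 ratio was 0.928 (exact sign-flip permutation p = 0.125, the smallest that 4 pairs allow).

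Of the estimates that turned in sign 1 had an adjusted p under 0.05, Dusp1 without TAZG197V 1 and 2 (edgeR, 0.0391). They were 0.008 for Hsf1, 0.008 for Bag3 and -0.048 for Dbp without both number 3 libraries, and -0.177 for Cryab, 0.018 for Rbm3, 0.358 for Tef and 0.002 for Nr1d1 without both number 4 libraries. Without TAZG197V 1 and 2 they were -1.08 for Fos, -0.34 for Fosb, -0.39 for Jun, -0.114 for Junb, -0.79 for Egr1, -0.69 for Egr2, -0.28 for Ier2, -0.64 for Dusp1, -0.76 for Nr4a1, -0.184 for Btg2, -0.009 for Zfp36 and -0.205 for Dbp. Without a low-count filter they were -0.09 for Jun, -0.138 for Per2, -0.289 for Dbp and -0.004 for Nr1d2. Dbp was -0.179 with no and -0.154 with 1 surrogate variable, and -0.006 under the block. Without both number 4 libraries and with no surrogate variables, they were -0.098 for Jun, -0.268 for Per2, -0.371 for Dbp and -0.058 for Nr1d2. When 1 library was left out, Bag3 ran from -0.07 to 0.004 (WT 3), Jun from -0.065 to 0.523, Egr2 from -0.151 to 1.12, Per2 from -0.048 to 1.06, Dbp from -0.234 to 0.722 and Tef from -0.194 to 0.261.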
